A study of Mus musculus with 8 samples.

Results

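The gained regions are stretches of the mouse genome with a peak of 5-hydroxymethylcytosine (5-hmC) in each of the HDAC7-KO libraries and with none in the WT libraries. Overlapping peaks of the 4 lists, by 1 bp or more, were joined, and 53562 of the 1894774 merged regions on chromosomes 1 to 13 had this pattern, or 2.83%. The members were thus chosen by the presence of peaks in the same 4 lists that are described here, so their pattern is a description with no test. The lists held 2588824 merged regions over all chromosomes.

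5-hmC is the base made when TET dioxygenases oxidize 5-methylcytosine, and it is both an intermediate of DNA demethylation and a mark found over enhancers and the bodies of active genes. Most methylated cytosines in mammals stand before a guanine, in CpG dinucleotides. HDAC7 is a class IIa histone deacetylase that is recruited by MEF2 factors in B cell progenitors, where it takes part in silencing genes of other lineages.

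The study asked how the genomic distribution of 5-hmC in progenitor B cells depends on HDAC7. Pro-B cells (B220+CD43+IgM-) were sorted from marrow of C57BL/6 mice aged 4 to 6 weeks. Their DNA was sheared to fragments of about 350 bp, and fragments bound by an anti-5hmC antibody were sequenced (hMeDIP-seq). The HDAC7-KO group (2 libraries) came from Hdac7 fl/- mice, which carry 1 floxed and 1 deleted allele and in which Cre is expressed from the mb1 (Cd79a) locus, active in the B lineage. The wild-type group (WT, 2 libraries) is named as wild-type in the labels, and the methods describe these mice as Hdac7+/- littermates, so that both groups lack 1 copy of the gene from the germ line. Whether the littermates carried Cre, and whether a library pooled several mice, is not given in the sources used here. A peak list cannot be used to check the identity of the cells or the loss of HDAC7, and the floxed gene lies outside the chromosomes described.

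Between 959005 and 1050099 peaks per library lay on chromosomes 1 to 13, and they covered 172 to 198 Mb. HDAC7-KO replicate 1 had 1050099 peaks and HDAC7-KO replicate 2 had 962302, against 959005 and 1035391 in the WT libraries, so the groups overlapped in number. The lists give no height, score or read count, and the depth of the libraries is therefore unknown. One library stood apart beyond chromosome 13: HDAC7-KO replicate 2 had 1.11 times as many peaks per base on chromosomes 14 to 19 as on chromosomes 1 to 13, whereas the other libraries had 0.993 to 0.996 times as many. Gained regions made up 3.18% of the merged regions there, and these were not included.

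The gained regions that follow show what a member looks like. They were picked among those of at most 300 bp outside annotated UTRs, as the ones with the most bases under the peaks of both HDAC7-KO libraries in an intron (Acbd6), in a coding exon (St5) and within a promoter window, as the one with the most CpGs (an intron of Igf2), as the one without a CpG with the most shared bases, and as intron regions of genes of 5-hmC and B cell biology (Tet2 and Tet3, which oxidize 5-methylcytosine, Ebf1, a factor that specifies B cells, and Hdac4, another class IIa deacetylase). Sequences are those of the plus strand of GRCm38.p6 from RefSeq, and CpG dinucleotides are in capitals.
Acbd6 intron (chr1:155606142-155606441): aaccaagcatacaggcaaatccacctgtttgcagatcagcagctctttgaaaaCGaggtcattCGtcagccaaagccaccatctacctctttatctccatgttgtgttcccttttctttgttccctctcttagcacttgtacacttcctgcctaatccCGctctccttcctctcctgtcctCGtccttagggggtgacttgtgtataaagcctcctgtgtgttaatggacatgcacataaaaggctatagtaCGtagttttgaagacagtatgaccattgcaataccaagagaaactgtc
St5 coding exon (chr7:109556752-109557048): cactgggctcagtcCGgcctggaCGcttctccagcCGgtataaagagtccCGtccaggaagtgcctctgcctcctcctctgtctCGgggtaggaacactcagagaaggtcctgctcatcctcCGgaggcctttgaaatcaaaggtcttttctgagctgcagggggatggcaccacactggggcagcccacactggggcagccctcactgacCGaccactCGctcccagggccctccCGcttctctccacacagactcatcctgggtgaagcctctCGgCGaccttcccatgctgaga
Rpl7a locus (chr2:26912250-26912548): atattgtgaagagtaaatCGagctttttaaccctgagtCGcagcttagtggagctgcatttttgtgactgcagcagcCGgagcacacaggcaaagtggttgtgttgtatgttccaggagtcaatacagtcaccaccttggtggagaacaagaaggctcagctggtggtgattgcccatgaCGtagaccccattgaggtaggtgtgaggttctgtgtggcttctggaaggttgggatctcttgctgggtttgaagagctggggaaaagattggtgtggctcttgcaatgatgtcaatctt
Igf2 intron (chr7:142663877-142664141): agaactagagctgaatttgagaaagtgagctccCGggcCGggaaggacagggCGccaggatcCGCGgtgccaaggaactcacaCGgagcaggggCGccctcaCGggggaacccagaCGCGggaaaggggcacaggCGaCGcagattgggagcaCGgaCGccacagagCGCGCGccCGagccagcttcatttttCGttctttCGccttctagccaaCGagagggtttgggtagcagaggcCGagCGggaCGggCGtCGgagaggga
chromosome 4 intergenic (chr4:64226646-64226936): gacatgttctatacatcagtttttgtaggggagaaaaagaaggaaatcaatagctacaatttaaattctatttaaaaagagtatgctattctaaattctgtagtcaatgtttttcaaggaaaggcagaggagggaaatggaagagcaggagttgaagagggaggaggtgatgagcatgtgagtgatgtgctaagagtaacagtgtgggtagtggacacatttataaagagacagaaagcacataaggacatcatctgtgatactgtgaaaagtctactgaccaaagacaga
Tet2 intron (chr3:133511023-133511178): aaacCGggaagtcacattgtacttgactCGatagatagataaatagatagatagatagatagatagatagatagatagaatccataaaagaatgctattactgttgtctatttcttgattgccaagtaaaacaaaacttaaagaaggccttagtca
Tet3 intron (chr6:83407768-83407934): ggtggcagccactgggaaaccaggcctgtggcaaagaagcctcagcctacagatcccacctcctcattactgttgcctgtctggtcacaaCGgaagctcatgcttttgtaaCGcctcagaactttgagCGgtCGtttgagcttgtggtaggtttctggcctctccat
Ebf1 intron (chr11:44939155-44939398): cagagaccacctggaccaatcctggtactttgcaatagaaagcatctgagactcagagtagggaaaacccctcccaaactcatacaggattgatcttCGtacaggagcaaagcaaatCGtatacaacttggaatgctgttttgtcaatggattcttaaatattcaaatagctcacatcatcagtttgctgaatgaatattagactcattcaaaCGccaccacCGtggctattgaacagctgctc
Hdac4 intron (chr1:92052040-92052330): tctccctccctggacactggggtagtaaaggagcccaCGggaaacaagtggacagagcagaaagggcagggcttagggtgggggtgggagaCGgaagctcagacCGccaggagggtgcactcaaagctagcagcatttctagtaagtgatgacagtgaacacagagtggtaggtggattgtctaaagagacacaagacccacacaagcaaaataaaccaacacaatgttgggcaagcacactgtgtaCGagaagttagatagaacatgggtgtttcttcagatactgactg

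The region of the Acbd6 intron held 5 CpGs in 300 bp and the one of the St5 exon 11 CpGs in 297 bp. The region at the Rpl7a locus, which encodes a protein of the large ribosomal subunit, lay 131 bp from a transcription start site and overlapped the snoRNA genes Gm22879 and Gm24134. The Igf2 region, in a gene for a fetal growth factor, held 26 CpGs in 265 bp and overlapped the antisense gene Igf2os. Of its bases, 140 lay under the peaks of both HDAC7-KO libraries, and the nearest WT peak was 486 bp away. The Tet2 region had 44 bp and the Tet3 region 122 bp under both HDAC7-KO peaks, with a WT peak at 127 and 101 bp. These examples ranged from none to 26 CpGs, and several stood within 150 bp of a WT peak.

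The number of gained regions lay within the range of the library pairs that mix the genotypes. Regions of both WT libraries alone, called lost, numbered 47478, or 2.51% of the merged regions, so that gained regions were 1.13 times as many. The WT replicate 1 and HDAC7-KO replicate 1 pair had 89375 regions alone, the WT replicate 2 and HDAC7-KO replicate 2 pair 60658, the WT replicate 2 and HDAC7-KO replicate 1 pair 54939 and the WT replicate 1 and HDAC7-KO replicate 2 pair 45524. Thus 3 of the 4 mixed pairs, each made of a WT and an HDAC7-KO library, had more regions of their own than the HDAC7-KO pair. The mixed pairs of libraries with the same replicate number, WT replicate 1 with HDAC7-KO replicate 1 and WT replicate 2 with HDAC7-KO replicate 2, were the largest sets. The order of gained and lost turned when only peaks at least 200 bp wide were used, with 31637 gained and 35203 lost regions. Both counts then lay within the range of the mixed pairs, 28662 to 50092. With 2 libraries in each group, and members chosen by the peaks themselves, no test was run.

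**Figure D1:**
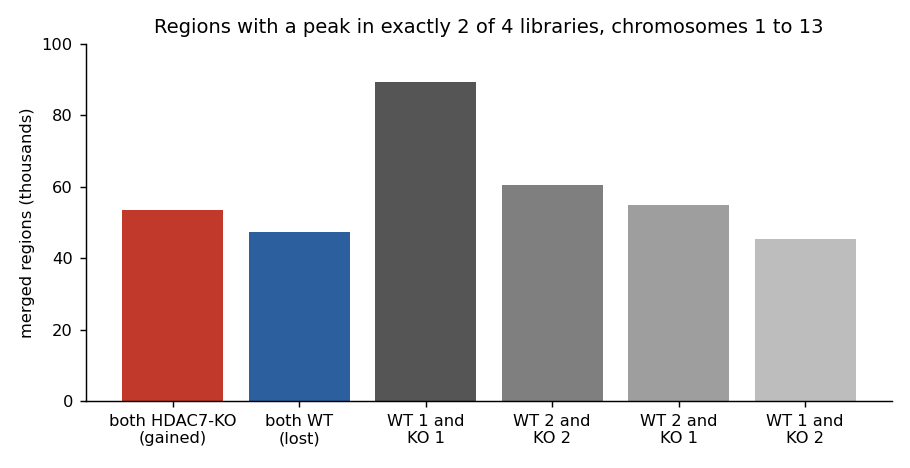
Bars give the number of merged regions on chromosomes 1 to 13 (axis scaled by 1000) with a peak in the named 2 libraries and in no other, for the HDAC7-KO pair, the WT pair and the 4 mixed pairs. The gained bar, 53562 regions, stands between the lowest mixed pair, at 45524, and the highest, at 89375.

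Gained regions were short, and many stood beside a WT peak. Their median width was 244 bp, with quartiles of 175 and 323 bp. The HDAC7-KO replicate 1 peaks within them had a median of 150 bp, the replicate 2 peaks one of 194 bp, and 94 bp lay under both. In 90.3% of the regions the peaks overlapped by at least 50% of the shorter one. The nearest WT peak was at a median of 376 bp, and 17.9% of the gained regions had one within 100 bp and 60.3% within 500 bp. In the other 5 pairs, the share with a peak of the remaining libraries within 500 bp was 55.3 to 61.1%.

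At the edge of the rule, 882 gained regions (1.65%) had HDAC7-KO peaks that shared only 1 to 5 bp, and 1227 (2.29%) had a WT peak within 10 bp. Just outside it, 169399 regions had peaks of both HDAC7-KO libraries and of 1 WT library, and in 2034 of them the WT peaks were at most 20 bp long. At the other end, 182 gained regions (0.34%) had 500 bp or more under both HDAC7-KO peaks. When no WT peak was allowed within 500 bp, 21285 gained and 20114 lost regions were left, and 17726 to 37198 regions of the mixed pairs under the same condition.

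The 10 regions with the most bases under both HDAC7-KO peaks had 876 to 1165 such bases. The longest lay between genes on chromosome 2 (chr2:129436729-129439103). It was 2375 bp wide with 1165 bp shared and 3 CpGs, and 89.1% of it was soft-masked, which marks repeats. The next lay in the lincRNA gene Gm42889 on chromosome 6 (chr6:67541859-67543314), with 1095 shared bp and 4 CpGs. The third was in an intron of Muc16, a membrane mucin gene, with 997 shared bp and a WT peak 17 bp away. Hipk2, a nuclear kinase gene, held the fourth with 983 shared bp, and Invs, a gene of the primary cilium, held the fifth with 975 bp over an exon. Nepn held one with 934 bp, and its nearest WT peak, 4102 bp away, was the most distant of the 10. The others lay in introns of Clvs2, Tenm2 and Elmo1 and near the olfactory receptor gene Olfr843. None of the 10 overlapped a gene of the lists described below.

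In CpG content the gained regions resembled the other pairs. No CpG was present in 25.4% of them, against 24.1% of lost regions and 23.0 to 28.7% of the mixed pairs, and against 26.9% of regions of the same widths placed at random on the same chromosomes. They held 0.838 CpGs per 100 bp, the lowest of the 6 pairs, whose other values were 0.856 to 0.937. The random placement held 0.851. Regions with 10 or more CpGs made up 1.86% of the gained and 2.24% of the randomly placed regions.

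Their base composition stood between the sets. The mean G+C content was 42.7% in gained regions, 43.8% in lost regions, 42.1 to 43.9% in the mixed pairs and 42.0% at random. Soft-masked bases made up 34.0% of the gained bases, 36.5% of the lost bases, 30.8 to 42.1% in the mixed pairs and 33.4% at random. The ends of both mixed ranges came from the pairs with the same replicate number. The mixed pairs with different numbers had 43.2 and 43.3% G+C and 34.3 and 35.3% soft-masked bases, with gained regions below and lost regions above them.

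Runs of the dinucleotide CA or TG, a common microsatellite, were rarer than at random. A run of at least 10 units overlapped 0.963% of the gained regions, 1.98% of the lost regions, 0.592 to 2.54% of the mixed pairs, 1.33% of all merged regions and 3.04% of the randomly placed ones. The WT replicate 2 and HDAC7-KO replicate 2 pair had fewer than the gained regions, and the WT replicate 1 and HDAC7-KO replicate 1 pair more than the lost ones. Both are pairs with the same replicate number. Against the mixed pairs with different numbers, at 1.40 and 1.38%, the gained share was lower and the lost share higher. The longest such run in a gained region of at most 300 bp, 57 bp, lay in an intron of Lcorl, here with the runs of CA or TG in capitals.
Lcorl intron (chr5:45785324-45785598): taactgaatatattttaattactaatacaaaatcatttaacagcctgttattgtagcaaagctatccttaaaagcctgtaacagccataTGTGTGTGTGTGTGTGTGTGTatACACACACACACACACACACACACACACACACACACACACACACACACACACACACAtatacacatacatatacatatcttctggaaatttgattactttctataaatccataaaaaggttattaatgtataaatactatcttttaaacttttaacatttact

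**Figure D2:**
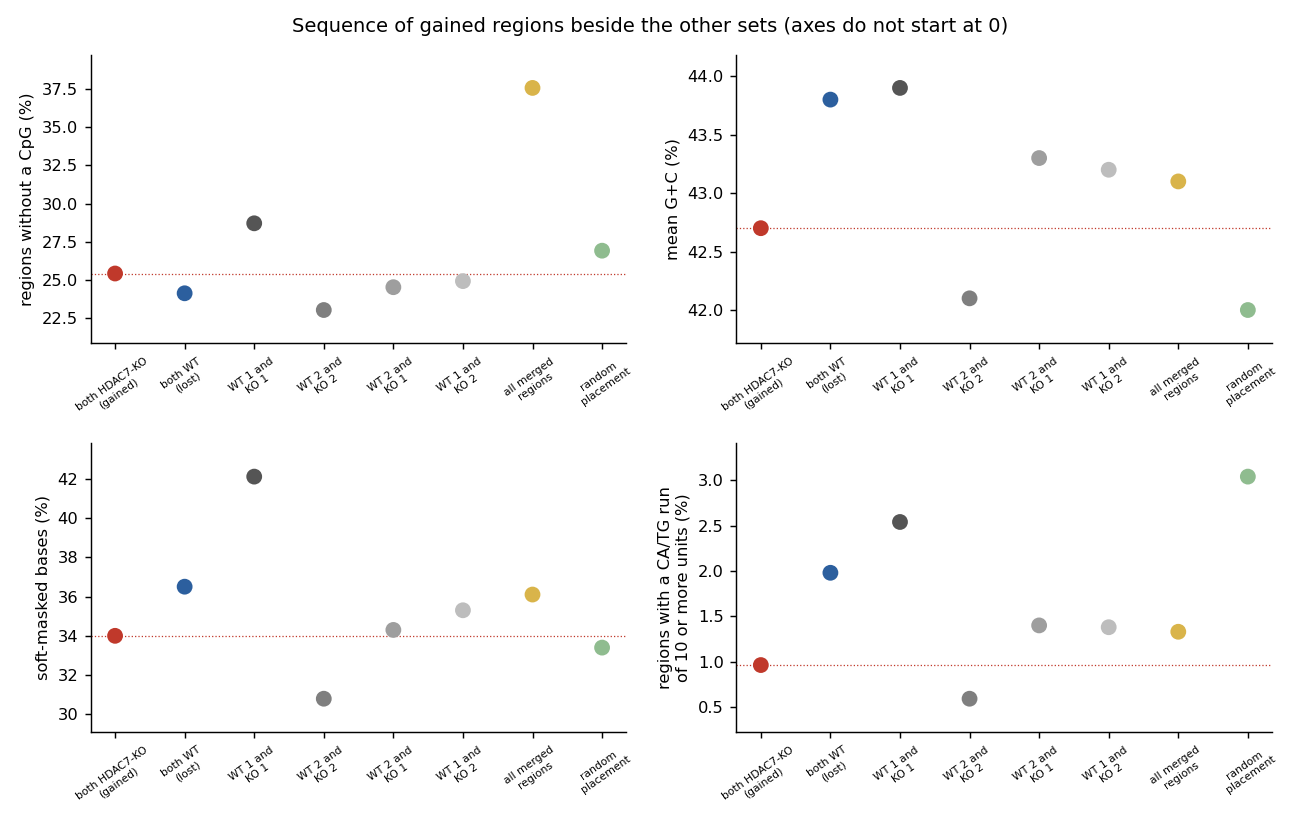
Each panel gives a measure for the regions of each library pair, for all merged regions and for the random placement: the percent without a CpG, the mean G+C percent, the percent of bases soft-masked and the percent with a CA/TG run. The dotted line marks the gained regions, at 25.4%, 42.7%, 34.0% and 0.963%, and in each panel mixed pairs stand on both sides of it.

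Runs of at least 20 purines or 20 pyrimidines were present in 11.9% of the 200-bp windows round the centres of gained regions and in 6.49% of the windows of randomly placed regions. The lost regions had 16.8%, and the mixed pairs 6.49 to 25.3%, or 12.3 and 15.4% in those with different replicate numbers. Motifs of factors that act in blood cells were searched in the same windows on both strands. The PU.1 motif, GAGGAAGT, was in 1.53% of the gained windows, 1.79% of the lost, 1.38 to 1.88% over the other 5 pairs and 1.19% at random. The IRF motif, GAAANNGAA, was in 11.2% of gained windows against 9.92 to 11.6% over the other pairs and 7.87% at random. For AP-1, the factor made of JUN and FOS proteins (TGANTCA), gained windows had 4.97% and random ones 5.92%. The MEF2 motif CTATTTNTA was in 1.28% of gained, 1.11% of lost and 1.41% of random windows. Motifs of early B cell factors were near the random level. The EBF1 motif, CCCNNGGG, was in 3.45% of gained and 3.2% of random windows. For E2A the letters CAGCTG were in 7.37% and 7.34%. The RUNX motif TGTGGTT was in 5.14% and 4.72%, respectively. Factors of other lineages and of cell survival were searched as well. FOXO, with GTAAACA, was at 2.76% in gained and 3.01% in random windows. For GATA factors, AGATAA was in 13% and 13.2%. For each of the 9 motifs the gained share lay within the range of the other 5 pairs, whose ends for most motifs came from pairs with the same replicate number. The letters CCTCCC, searched as well, were in 21.8% of gained windows, 16.9 to 31.9% over the other 5 pairs and 14.8% at random. The AP-1, E2A and EBF1 letters read the same on both strands, and windows with several motifs counted for each.

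By annotation, 42.3% of the gained regions had their centre in an intron, 49.6% between genes, 4.33% in an exon and 3.82% in a promoter, defined as 1000 bp upstream to 100 bp downstream of a GENCODE transcription start site. Random placement gave 41.8%, 50%, 4.43% and 3.79%. The promoter share was 4.29% in lost regions and 3.88 to 4.34% in the mixed pairs, so that the gained share was the lowest of the 6 by a small margin. The median distance to the nearest start site was 15194.5 bp in gained regions, 13881 bp in lost regions and 15574.5 bp at random. Within 10 kb of a start site lay 39.4% of gained, 41.6% of lost, 38.8 to 41.1% of mixed-pair and 39.0% of randomly placed regions.

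The gained regions were spread nearly evenly along the genome. Per chromosome, they made up 2.75% (chromosome 7) to 2.96% (chromosome 13) of the merged regions, and the ratio of gained to lost regions was above 1 on each of the 13 chromosomes, from 1.05 on chromosome 11 to 1.18 on chromosome 13. The 18343 windows of 100 kb with at least 90% known bases held a mean of 2.91 gained regions (SD 1.78 over windows), 1224 windows had none and the fullest had 12. The variance of the counts was 1.09 times their mean, and 1.07 to 1.21 times in the other pairs, where regions scattered independently would give about 1. Across these windows the gained count had a Pearson r of 0.058 with the lost count, 0.036 to 0.071 with the mixed pairs and 0.276 with all merged regions, values that describe windows of the same 4 libraries. The count of all merged regions includes the gained ones, so the value of 0.276 is partly fixed in advance.

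Close to each other, gained regions were slightly more frequent than an even spread gives. Within 1000 bp, centre to centre, a gained region had 1.24 times the neighbours of its own set, and between 3 and 10 kb 1.03 times. The other pairs had 1.1 to 1.22 times within 1000 bp, and the random placement 0.987. Lost regions were the scarcest neighbours of gained regions within 1000 bp, at 0.81 times an even spread, against 0.853 to 0.982 for the mixed pairs. The lost set shares no library with the gained set, whereas each mixed pair shares an HDAC7-KO library with it. Whether the order of these sets follows from that was not tested. From 10 kb on, each of these sets lay between 1.00 and 1.03 times an even spread round gained regions. The median distance to the next gained region was 11353.5 bp, and 45.8% had another within 10 kb. Within 10 kb as a whole the density was 1.06 times an even spread, and 1.01 times with peaks at least 200 bp wide or with peaks within 100 bp merged.

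**Figure D3:**
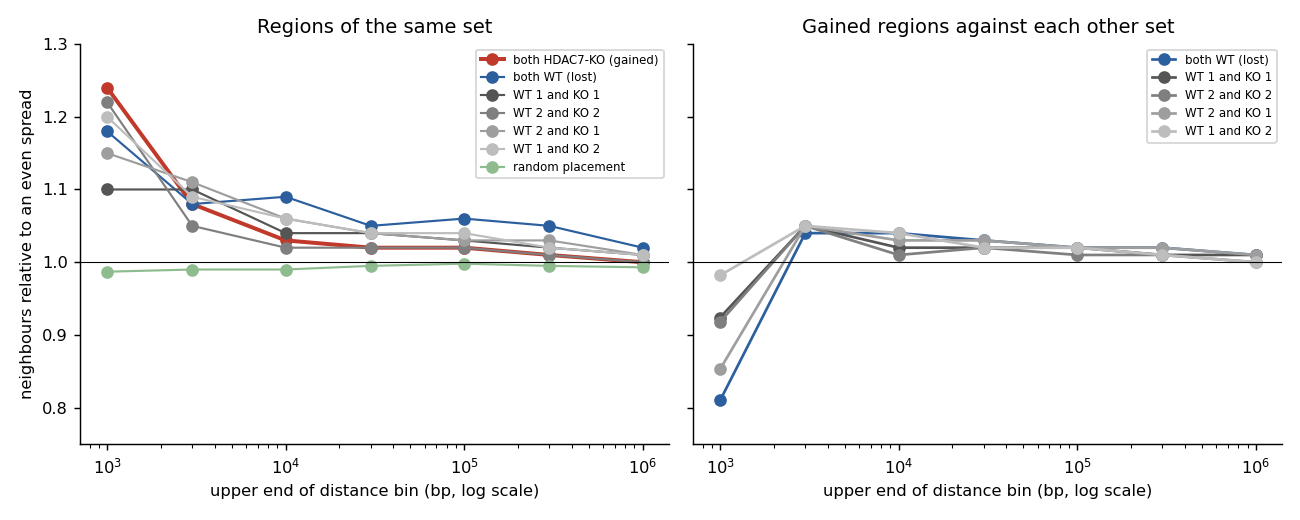
Lines give the number of neighbours per distance bin (log axis, upper end of the bin in bp) relative to an even spread, on the left between regions of the same set and on the right between gained regions and each other set. Gained regions start at 1.24 and reach 1.02 by 30000 bp, close to the other pairs, and lost regions start at 0.81 beside gained ones.

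The flanks of gained regions, from 500 to 5000 bp away on each side, had about the same peak density in the 4 libraries. Relative to the mean of the same library, the density was 1.06 in WT replicate 1, 1.05 in WT replicate 2, 1.05 in HDAC7-KO replicate 1 and 1.06 in HDAC7-KO replicate 2. The ratio of HDAC7-KO to WT density was 1.00, against 0.992 round lost regions and 0.996 to 1.00 in the mixed pairs. The groups overlapped in the flanks.

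The share of gained regions fell with the G+C content of the 100-kb window. It was 3.03% of the merged regions in the lowest of 5 equal classes of windows (33.5 to 38.3% G+C) and 2.55% in the highest (45.4 to 58.9%). Lost regions went the other way, from 2.35 to 2.73%, so that the ratio of gained to lost passed from 1.29 to 0.934. The WT replicate 2 and HDAC7-KO replicate 2 pair, which mixes the genotypes, fell from 3.47 to 2.71%, a larger step than that of the gained regions. The libraries themselves differed in this respect. Their peak density in the richest class, relative to their own mean, was 1.25 in WT replicate 1, 1.16 in WT replicate 2, 1.22 in HDAC7-KO replicate 1 and 1.12 in HDAC7-KO replicate 2. Within each genotype, replicate 2 had the flatter profile. The part of these profiles in the gained pattern was not tested.

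**Figure D4:**
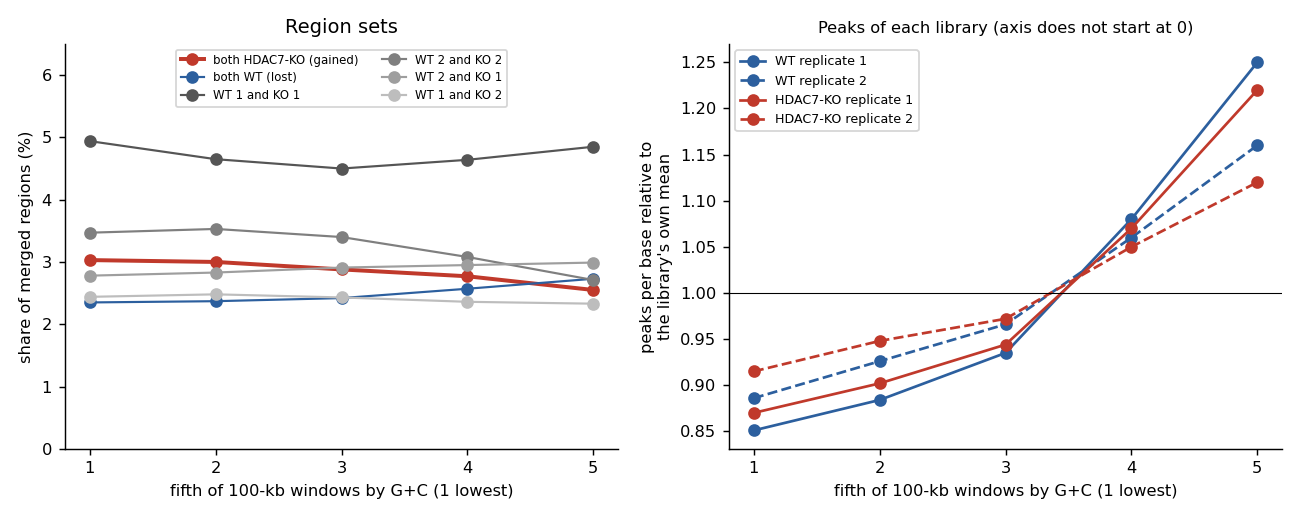
On the left, the share of merged regions that belongs to each library pair, in percent, by class of 100-kb windows ordered by G+C content, and on the right the peak density of each library in the same 5 classes relative to its own mean. The gained line falls from 3.03 to 2.55% and the lost line rises from 2.35 to 2.73%, and the libraries range from 1.12 to 1.25 in the richest class.

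Of 16168 protein-coding genes on these chromosomes, 7582 (46.9%) had a gained region over the gene body and 7457 (46.1%) a lost one. The genes with the most gained regions were very long. Gm20388, an annotated span of 4434882 bp on chromosome 8 that overlaps many genes, had 138, Fgfr2, a fibroblast growth factor receptor gene with an annotated span of 2960900 bp, had 92, and the neuronal adhesion genes Cntnap2 and Nrxn3 had 58 and 54. The others were Macrod2 (55), Anks1b (51), Gm37240 (50), Lrp1b (50), Ptprd (48) and Dlg2 (47). Measured against their merged regions, the gained share ranged from 2.47% in Gm20388 to 4.62% in Anks1b, where 51 of 1103 regions were gained and 32 lost. Genes longer than 300000 bp had a gained share of 2.88% as a group, and genes shorter than 10000 bp one of 2.72%.

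The excess of gained over lost regions, with 2000 bp added on each side, was largest in Ntm, which encodes a neural adhesion protein. Ntm had 43 gained and 16 lost regions. It held 476 and 567 peaks in the WT libraries and 552 and 527 in the HDAC7-KO libraries, so the groups overlapped. Sema6d, a semaphorin gene, had 21 gained and 3 lost regions, and its peaks covered 40.9 and 56.5 kb in WT and 47.1 and 47.6 kb in HDAC7-KO. Dpyd, for a pyrimidine-degrading enzyme, had 33 and 16, with 69.0 and 82.1 kb in WT and 67.7 and 92.5 kb in HDAC7-KO. Neither gene was thus separated by genotype in its covered bases. Gm37240 (51 gained, 28 lost), Cntnap2 (59, 37), Anks1b (51, 32), Nrxn3 (54, 35), Nckap5 (29, 12), Naaladl2 (35, 19) and Kirrel3 (28, 13) made up the rest of the 10.

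In the opposite direction stood Gm20388 (139 gained, 165 lost), Zfhx3 (20, 43), Galnt17 (5, 18), Col19a1 (5, 17) and Fmnl2 (2, 12). Fmnl2, a gene for an actin-nucleating formin, had 188 and 152 peaks in WT and 127 and 103 in HDAC7-KO, and its peaks covered 29.2 and 26.3 kb in WT against 19.2 and 19.6 kb in HDAC7-KO. There the groups did not overlap. Zfhx3, a homeodomain factor gene, had 113 and 109 kb in WT and 100 and 97.2 kb in HDAC7-KO, without overlap in covered bases. Its peak numbers, 684 and 597 in WT and 662 and 558 in HDAC7-KO, overlapped. The genes were named for these counts, which come from the same lists, so the values are a description. The share of all genes whose groups do not overlap was not counted, so these separations cannot be weighed.

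At promoters of protein-coding genes, 1576 gained regions overlapped by at least 1 bp and touched 1495 genes, or 9.25%. This overlap was not counted for the other sets. By region centre, such promoters held 2.45% of gained, 2.89% of lost, 2.39 to 2.88% of mixed-pair and 2.39% of randomly placed regions. The gained share was thus near that of random placement. The gained promoter region with the most bases under both HDAC7-KO peaks belonged to Prex1, a Rac exchange factor gene. It had 806 shared bp and 11 CpGs, with its centre 468 bp upstream of the start site and a WT peak at 355 bp. Usp33, a deubiquitinase gene, followed with 636 bp, and Myom3, a muscle gene, with 588 bp. Tnfrsf9, which encodes the T cell costimulator 4-1BB, had 552 bp and a WT peak at 15 bp. Tead2, a factor of the Hippo pathway, had 550 bp, and Hinfp, a histone gene activator, 538 bp, 19 CpGs and a WT peak at 25 bp. Arnt, the partner of the hypoxia-inducible factors and of the aryl hydrocarbon receptor, had 534 bp. Hspa8, a constitutive heat shock chaperone gene, was the one with a CpG-rich region at its start site: the region was centred 47 bp upstream, held 48 CpGs and had 498 bp under both peaks, and the nearest WT peak lay 594 bp away. Gramd1b (468 bp) and Gak (422 bp) completed the 10, and apart from Prex1, Usp33, Hinfp and Hspa8 these regions held 4 to 6 CpGs.

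Among gene classes, the receptor families of the nose had the highest gained shares among those with more than 100 gained regions. Over the 924 olfactory receptor (Olfr) genes, 214 of 5862 merged regions were gained, or 3.65%, and 102 were lost, or 1.74%. Since the pairs differ in size, each share was divided by the pair's share of all merged regions. This relative share was 1.29 for gained, 0.694 for lost and 0.966 to 1.23 for the mixed pairs, so that gained lay above and lost below them. With 2000 bp added on each side of the genes, the gained value was 1.15, within the 0.963 to 1.17 of the mixed pairs. Over 280 vomeronasal receptor (Vmn1r and Vmn2r) genes 3.70% were gained and 2.38% lost, with relative shares of 1.31 and 0.951, against 0.984 to 1.23 in the mixed pairs. These receptors are known for their expression in sensory neurons. Without HDAC7-KO replicate 2 the Olfr gained share was 0.921 times that of all merged regions, and without HDAC7-KO replicate 1 it was 1.08 times, compared with 1.29 times when both were required. For Vmn genes the values were 0.997 times without replicate 2 and 1.04 times without replicate 1, so neither class kept its gained excess without HDAC7-KO replicate 2.

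Zinc finger (Zfp) genes had 2.90% gained and solute carrier (Slc) genes 2.69%, near the 2.83% of all merged regions. Immunoglobulin V segments with 2000 bp on each side had 2.76%, or 40 of 1447 regions, against 1.73% lost, and the relative share was 0.978 for gained, 0.69 for lost and 0.906 to 1.18 for the mixed pairs. Classes with few regions lay farther from the overall share. T cell receptor V segments, with the same margin, had 5 gained and 3 lost of 150 regions. Over miRNA genes themselves, 10 of 213 regions were gained and 5 lost, and the WT replicate 2 and HDAC7-KO replicate 1 pair also had 10. With the margin, the miRNA shares were 2.57% gained and 2.25% lost. Hox genes had 4 gained and 8 lost of 271 regions, and Hist genes 1 and 3 of 105.

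Genes of 9 lists were counted with 2000 bp on each side. Over all merged regions, 2.83% were gained and 2.51% lost. Among these lists the T-lineage list had the highest gained share. Of the 594 merged regions, 23 were gained (3.87%) and 11 lost (1.85%). The relative shares were 1.37 and 0.739, against 0.473 to 1.05 in the mixed pairs. Here 6 of 14 genes had more gained than lost regions and 3 the reverse. The relative share was 0.985 without HDAC7-KO replicate 1. With peaks at least 200 bp wide it was 1.05, with 10 gained and 15 lost regions, so the order turned and the list no longer had the highest share. Bcl11b, the factor that commits cells to the T lineage, had 9 gained and 4 lost regions. Its peaks covered 8.90 and 9.89 kb in WT and 8.61 and 10.8 kb in HDAC7-KO, so the groups overlapped. Il2ra, the gene of the interleukin-2 receptor alpha chain, had 4 gained and 1 lost, with 6.43 and 6.15 kb in WT and 6.90 and 8.29 kb in HDAC7-KO. These values did not overlap, whereas the peak numbers of Il2ra met, at 36 and 37 in WT and 42 and 37 in HDAC7-KO. The share of all genes with a separation in covered bases was not counted. Notch1, the receptor that starts T cell development, and Tcf7, a factor it turns on, each had 2 gained and no lost region, and Zap70, a T cell receptor kinase gene, had 2 of each. Cd3d, Cd3e, Cd3g and Cd8b1 had 1 gained region each, and Cd4, Cd8a, Gata3, Lck and Thy1 none.

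B-cell identity factors had 69 gained (2.78%) and 60 lost (2.42%) of 2480 regions. The relative shares were 0.984 and 0.966, within the 0.731 to 1.11 of the mixed pairs. Ebf1 had 19 gained and 15 lost regions, Bach2 16 and 11, and Pax5 10 and 7. Foxo1, a factor upstream of Rag expression, had 6 gained and no lost region. Foxo1 held 95 and 75 peaks in WT and 96 and 82 in HDAC7-KO, so the genotypes overlapped. Ikzf1 had 5 and 7, Bcl11a 2 and 6, and the other 6 genes of the list 1 to 3 gained regions each. Genes of the pre-B-cell receptor and its signalling had 10 gained (1.71%) and 16 lost (2.74%) of 585 regions, a relative gained share of 0.605 against 0.507 to 1.49 in the mixed pairs, with Syk, a kinase, at 4 and 1, Plcg2, a phospholipase, at 3 and 9, and 1 gained region each in Cd22, Cd79a and Lyn. In the V(D)J recombination list 21 of 825 regions were gained (2.55%) and 20 lost (2.42%). The relative shares were 0.9 and 0.967, within the 0.505 to 1.1 of the mixed pairs. Rag1, 1 of the recombinase genes, had 2 gained and no lost, Rag2 had 1 of each, and the repair genes Xrcc4 had 8 and 7, Nhej1 4 and 3, Lig4 2 and 0, Xrcc5 2 and 4 and Hmgb1 2 and 5.

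Myeloid genes had 8 gained (2.0%) and 15 lost (3.74%) of 401 regions, relative shares of 0.706 and 1.49 against 0.389 to 1.16 in the mixed pairs. By gene, 3 had more gained than lost regions and 3 the reverse. Spi1, the gene of the myeloid and B cell factor PU.1, had no gained and 6 lost regions. Its peaks numbered 49 and 40 in WT and 40 and 40 in HDAC7-KO, so the groups met in number. The peaks covered 10.6 and 9.19 kb in WT and 5.96 and 7.39 kb in HDAC7-KO, without overlap. How common such a separation is among all genes was not counted. Itgax, an integrin gene of dendritic cells, had 3 gained and 2 lost, and Csf3r, Irf8, Itgam, Klf4 and Mpo had 1 gained each. Of the lineage-inappropriate genes that the study names, Itgb2 had 2 gained and 2 lost regions, Fosb 1 and 0, Cd69 0 and 1, Fosl2 0 and 2, and Jun none of either. For Jun and Fosb the paper reports more hydroxymethylation in HDAC7-KO cells by sequencing signal. It also reports an increase at Jun and Fosl2 by PCR after immunoprecipitation. Peak positions carry no signal, so the counts of gained and lost regions cannot check these reports. The list of these genes had 2.46% gained and 4.1% lost of 122 regions, relative shares of 0.87 and 1.64 against 0.283 to 1.02 in the mixed pairs. The order turned to 4 gained and 2 lost with peaks within 100 bp merged and to 2 and 1 with peaks at least 200 bp wide. At Jun, HDAC7-KO replicate 1 had 6 peaks and the others 1 or 2. The peaks there covered 0.166 and 0.229 kb in WT and 0.549 and 0.492 kb in HDAC7-KO. In covered bases the groups thus did not overlap, but the share of all genes with such a separation was not counted. The study chose these genes, so the list is not independent evidence of a direction.

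Genes listed for DNA methylation and demethylation, not all of which encode enzymes that act on cytosine, had 20 gained (2.56%) and 25 lost (3.21%) of 780 regions. The relative shares were 0.907 and 1.28, both within the 0.761 to 1.39 of the mixed pairs. Tet3 had 4 gained and 4 lost, Tet1 3 and 7, and Tet2, the gene that the study names as a target of HDAC7, 3 and 2. The peaks over Tet2 covered 6.95 and 6.55 kb in WT and 6.41 and 5.19 kb in HDAC7-KO. Dnmt3a, a de novo methyltransferase gene, had 3 and 5, Dnmt1, the maintenance enzyme, 2 and 0, Dnmt3l 2 and 1, Dnmt3b 1 and 1, and Idh2 and Mbd4 1 and 0. Class IIa HDACs, MEF2 factors and their corepressors had 46 gained (2.30%) and 52 lost (2.60%), a relative gained share of 0.813 against 0.954 to 1.11 in the mixed pairs. That share was 0.963 with peaks at least 200 bp wide, 1.0 without HDAC7-KO replicate 1 and 0.976 without HDAC7-KO replicate 2. Under the other alternatives it was 0.623 to 0.918. Hdac9 had 22 gained and 24 lost regions, Ncor1 6 and 2, Hdac4 5 and 7, Mef2a and Mef2c 3 and 3, Hdac5 2 and 2, and Mef2b and Mef2d 1 and 1. In the IL-7 and progenitor cytokine list 9 regions were gained (1.54%) and 21 lost (3.59%), relative shares of 0.544 and 1.43 on either side of the 0.707 to 0.925 of the mixed pairs. Jak1 had 2 and 3, Kit 2 and 2, Socs2 2 and 0, Stat5b 2 and 6, Jak3 1 and 1, and the receptor kinase gene Flt3 had no gained and 5 lost regions. With peaks at least 200 bp wide the gained share of the cytokine list was 1.04 times that of all merged regions, against 0.544 times with all peaks, and it was 1.15 times without HDAC7-KO replicate 2.

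**Figure D5:**
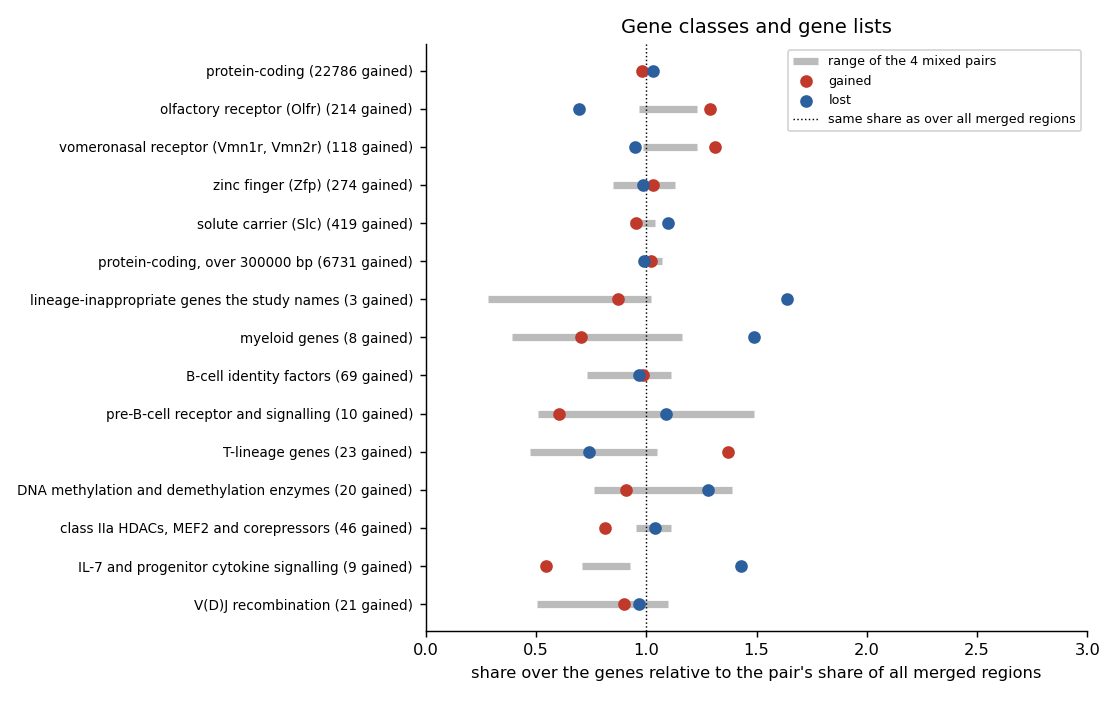
Points give the share of the merged regions over the genes of each class or list that are gained and lost, divided by the share of the same pair among all merged regions, grey bars the range of the 4 mixed pairs, and the dotted line a ratio of 1. The gained points of the Olfr and Vmn classes (1.29 and 1.31) and of the T-lineage list (1.37) lie to the right of their bars, and those of the class IIa HDAC list (0.813) and the cytokine list (0.544) to the left.

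Dense groups of gained regions were rare. The 5 windows of 100 kb with the most held 11 or 12. The window at chr5:29100001-29200000, with the gene Rnf32, had 12 gained and 1 lost of 107 merged regions. Its peaks covered 8760 and 9988 bp in WT and 11176 and 13932 bp in HDAC7-KO, without overlap. At chr13:69900001-70000000, with the lincRNA gene 4933416O17Rik, there were 12 gained and 5 lost regions, with 7703 and 12339 bp in WT and 9950 and 9669 bp in HDAC7-KO. In the latter window the genotypes overlapped. The windows at chr9:109600001-109700000, with Fbxw24, Fbxw25 and Fbxw18, and at chr5:138400001-138500000, with Zfp157, had 11 gained regions each and 2 and 1 lost. The windows were chosen for their gained count, so a higher cover in HDAC7-KO is partly fixed by the choice. The share of all windows in which the genotypes do not overlap was not counted.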

How the data were processed

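The measurements are hMeDIP-seq peaks of 4 libraries, deposited as start and end positions only (unit: position, listed as other, with no counts or signal). The submitters' processing notes name Trim Galore 0.4.2, cutadapt 1.6, Bowtie2, deepTools and MACS2 on mm10, while the methods name bwa for mapping. The authors called peaks per library, and the methods state that peaks meeting an input peak were removed. Input libraries were not analysed here.

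Merging and counting used pandas 2.3.3 and NumPy 2.4.6 under Python 3.11.15. Regions were annotated with GENCODE M21 and soft-masked RefSeq GRCm38 sequence, by region centre unless stated. Random regions kept each gained region's width and chromosome, outside unknown bases (5 placements). The code was tested on simulated data. Genes were named by rule (10 each, 5 with fewer gained than lost): most gained regions, largest difference from lost regions, longest shared promoter peaks, and list members. The members and lists were chosen with earlier results of these data known. Motifs were chosen likewise. Alternatives were other peak widths, merging gaps, overlaps and distances, promoter, flank and run definitions, and each library left out. Nothing tells whether libraries came from separate animals. A gene of 1 list and 1 of the densest windows are not reported here.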

Additional observations from a re-analysis of the deposited data

How the results depend on the processing

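No paired analysis was possible because the results come from no test. Depth is unknown, so each count rests on where the peaks were cut off. Of 193 values recomputed under alternatives, 135 stayed within the yardstick. Of the 88 for gene lists and classes, 20 lay on the other side of 1 from the reported value, in 9 of the 11 lists and classes (the exceptions were the myeloid and class IIa HDAC lists). The yardstick was the SD over the 4 mixed pairs, 1.5 times for counts, and a counting interval for gene lists, whose alternatives were chosen after seeing the data. The cause of these changes was not tested.

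With peaks at least 200 bp wide there were 31637 gained regions and the ratio of gained to lost regions turned to 0.899. The median width was then 368 bp, 14.3% had no CpG, 3.49% lay at promoters, 38.1% lay within 10 kb of a start site, pair density within 10 kb was 1.01, the flank ratio was 1.01, and the IL-7 list had 1.04 times the overall gained share. Merging peaks within 100 bp gave a median width of 270 bp, 21.5% without a CpG and a pair density of 1.01. With no peak of the other genotype within 500 bp, 21285 regions (1.12%) were gained, with a pair density of 1.21, a flank ratio of 1.01, 38.4% within 10 kb of a start site, and relative gained shares of 1.55 (Olfr), 0.646 (B-cell identity) and 0.54 (V(D)J recombination). Promoters of 2000 bp on each side held 11.9%, and with start sites of protein-coding genes alone 2.45% lay at promoters and 25% within 10 kb. Runs of at least 6 CA/TG units were in 2.86%, and the pair density within 100 kb was 1.02.

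Leaving out 1 library loosens the rule. The number gained was then 112196 (without WT replicate 2) to 315682 (without HDAC7-KO replicate 1), or 6.85 to 18.3%. The ratio of gained to lost was 0.411 without WT replicate 1, 0.433 without WT replicate 2, 2.28 without HDAC7-KO replicate 1 and 3.12 without HDAC7-KO replicate 2, since the group with 1 library left needs only 1 peak. Median width was 81 to 286 bp, the share without a CpG 22.5 to 53.9%, mean G+C 42.3 to 43.5%, promoters 3.59 to 4.54%, within 10 kb of a start site 38.6 to 42.1%, pair density 1.03 to 1.13 and the flank ratio 1.0 to 1.01. Relative gained shares were 0.921 to 1.24 for Olfr genes, 0.997 to 1.19 for Vmn genes, both lowest without HDAC7-KO replicate 2, and 0.746 to 1.15 for the IL-7 list, highest without that library.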
